A study of Drosophila melanogaster with 8 samples.

Results

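Fat is stored in animal cells as droplets of triacylglycerol. Between the laboratory strains Dahomey and Oregon R, 9 Drosophila melanogaster genes of triacylglycerol synthesis, droplet coats and lipases were compared. Not all of these lipases are known to act on the droplet. The genes are the lipases bmm and Hsl, the droplet-coat (perilipin) genes Lsd-1 and Lsd-2, the synthesis genes mdy and Lpin, and the lipases mag, Lip3 and Lip4 of the acid lipase family. They were picked out of the table by symbol, from a list drawn up with earlier results of these data known, and all 9 were found among the 14701 gene IDs of the table, each on 1 row. Poly(A) RNA came from heads and thoraxes together, without abdomens, of mated females aged 10 days and kept at 25 °C. There were 4 libraries of Dahomey, a wild-type stock of African origin, and 4 of Oregon R, a long-kept laboratory wild type, and each library pooled 60 flies. No transgene, mutation or drug is named for either strain.

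The data were the authors' finished DESeq2 comparison of the strains, in which each gene has an adjusted p, a log2 fold change and its SE (standard error), and a normalized read count averaged over all libraries. No values of single libraries were used here. The spread between libraries is therefore seen only through the SE, and library depths are unknown. The table's name puts Dahomey before Oregon R, and positive fold changes were therefore taken as higher in Dahomey. Its headers do not state the sign, and if it ran the other way every direction below would turn round. Strain means were worked out from the deposited mean and fold change, with both strains weighted equally, and carry no error of their own. A gene passed at an adjusted p under 0.05. Separate cultures are not recorded for the 4 libraries of a strain, so a p-value reflects the spread among these libraries, which may be technical. All 49 matched markers of 7 tissues had a mean above 0. Those of photoreceptors (ninaE and trpl highest), flight muscle (Mhc and up), neurons (Syt1 and nSyb) and haemocytes (Hml and Pxn) were present.

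In the fly, most fat lies in the fat body, part of which is in the head and thorax, and smaller stores lie in gut, muscle and glia. Synthesis ends with Lpin, which makes diacylglycerol from phosphatidate, and mdy, the DGAT1 enzyme that adds the last fatty acid. Perilipins coat the droplet: Lsd-2 shields it from lipases, while Lsd-1 also lets Hsl reach it when the hormone Akh calls for fuel. The lipase bmm, the fly counterpart of ATGL, takes off the first fatty acid, and flies that lack it grow fat. The gene mag encodes a lipase secreted into the gut that digests dietary fat, Lip3 is known as a gene induced by fasting, and Lip4 as a target of the insulin-regulated factor FOXO.

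Among the 9 genes, bmm and Lip3 were lower in Dahomey and Lip4 was higher. Lip3 had the largest difference, about 3.0-fold, while those of bmm and Lip4 were 1.25-fold and 1.19-fold. Lip3 had few reads and shares exon bases with a more abundant gene on the opposite strand, and the call of Lip4 lay at the threshold. Both droplet-coat genes had negative fold changes that did not pass or had no p, and the synthesis genes and Hsl did not pass. Of the 7 members with a p-value, 3 passed, or 42.9%, where 29.4% of all 13395 rows with a p-value passed. By direction, 1 member was higher, against 14.7% of all rows, and 2 were lower, against 14.7%. The 7 genes are too few to read this count apart from the background. Over the 7, the median log2 fold change was -0.02, against -0.01 over all rows with a p. In bulk RNA, fewer cells of a type and less RNA per cell cannot be told apart.

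**Figure D1:**
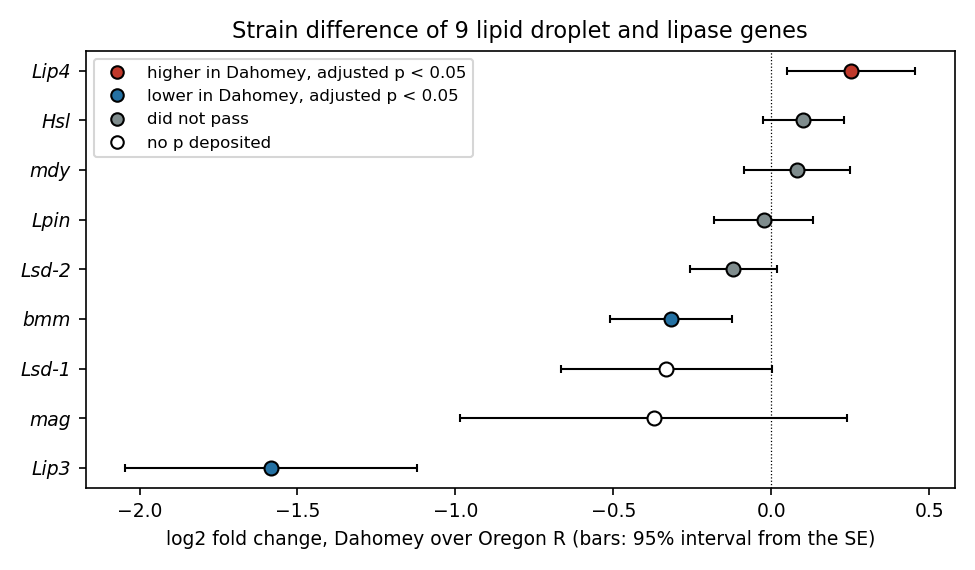
Log2 fold change of Dahomey over Oregon R for each of the 9 genes, with bars for the 95% interval from the authors' SE; colour marks the call. The interval of Lip3 lies to the left of all others, that of bmm ends below 0, that of Lip4 begins just above 0, and those of the other 6 genes reach or cross 0.

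The levels of the 9 genes covered a wide range. Per kilobase of exon, taken from the BDGP6 annotation, the deposited mean was highest for Lsd-1 (10384 normalized counts per kb), followed by Lsd-2 (9858), Lpin (7087) and bmm (4695). A middle group followed with mag (2566), Lip4 (2169), mdy (2151) and Hsl (1494). Lip3 was far below, at 169 normalized counts per kb. No spread between libraries goes with these levels, so the order of close neighbours such as Lsd-1 and Lsd-2, or Lip4 and mdy, is a description only.

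**Figure D2:**
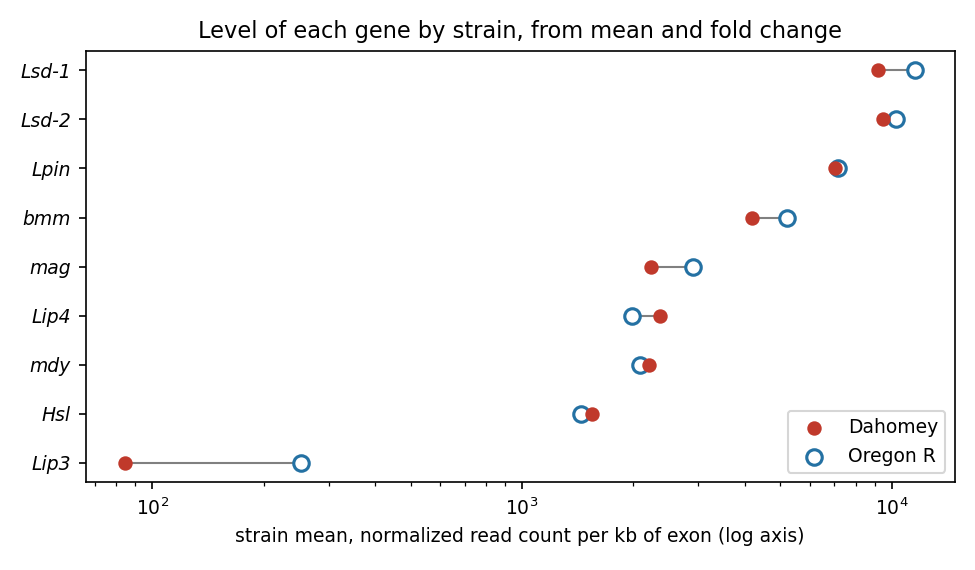
Mean of each gene in Dahomey (filled) and Oregon R (open), computed from the deposited mean and fold change, in normalized read counts per kb of exon on a log axis, with genes ordered by level. The strains are close together for every gene but Lip3, whose level is also the lowest.

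The lipase gene bmm (FBgn0036449, arm 3L) had a mean of 10192 normalized counts in Dahomey, against 12693 in Oregon R. Its log2 fold change in the authors' deposited table was -0.32 ± 0.098 (SE; DESeq2 adjusted p = 0.00607), and the 95% interval ran from -0.51 to -0.12. The difference was thus modest: 28.2% of genes with a p-value had a larger fold change in either direction. Hsl (FBgn0034491, arm 2R), which acts with bmm on stored fat, had 5956 normalized counts in Dahomey, against 5549 in Oregon R. The authors' deposited table gave it a log2 fold change of 0.10 ± 0.065 (adjusted p = 0.265). The 95% interval of -0.03 to 0.23 ran from a 1.02-fold lower to a 1.17-fold higher level in Dahomey. The fold changes of these lipases had opposite signs, and that difference was not tested.

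Of the droplet-coat genes, Lsd-1 (FBgn0039114, arm 3R) had 18018 normalized counts in Dahomey and 22688 in Oregon R. The authors' deposited table listed a log2 fold change of -0.33 ± 0.17 and no p-value for it. That fold change is as large as that of bmm, but its SE was 2.22 times the median SE of the 200 genes nearest in mean, and 98.5% of them had a smaller one. DESeq2 can leave a gene without a p-value, and no source used here gives the reason for Lsd-1. Its interval, from -0.67 to 0.00 on the log2 scale, just reached 0. Lsd-2 (FBgn0030608, arm X) had 43449 normalized counts in Dahomey, against 47207 in Oregon R. Its log2 fold change was -0.12 ± 0.070 in the authors' deposited table (adjusted p = 0.210), and the interval ended at -0.26 on the low side. Lsd-1 shares 144 exon bases, 7.35% of its exon length, with CG10214 on the opposite strand in BDGP6. CG10214 had a mean of 2168, or 0.107 of that of Lsd-1, and a log2 fold change of -0.27 ± 0.13 (adjusted p = 0.106) in the authors' deposited table.

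The member genes of the last steps of synthesis, Lpin and mdy, had fold changes near 0 that did not pass. Lpin (FBgn0263593, arm 2R) had 38746 normalized counts in Dahomey and 39365 in Oregon R, and its log2 fold change in the authors' deposited table was -0.02 ± 0.080 (adjusted p = 0.882). For mdy (FBgn0004797, arm 2L), the means were 5947 in Dahomey and 5620 in Oregon R, with 0.08 ± 0.086 (adjusted p = 0.566) in the authors' deposited table. The intervals held differences of at most 1.13-fold lower and 1.10-fold higher for Lpin, and up to 1.19-fold higher for mdy. Lpin shares 600 exon bases with kermit on the same strand; kermit had a mean of 2203 and a log2 fold change of 0.29 ± 0.0895 in the authors' deposited table. The part of shared reads in the value of Lpin was not tested.

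Lip3 (FBgn0023495, arm 3R) showed the largest difference and rested on the fewest reads. Its mean was 121 normalized counts in Dahomey, against 363 in Oregon R. The authors' deposited table gave a log2 fold change of -1.58 ± 0.24 (DESeq2 adjusted p = 2.92e-10), with an interval from -2.05 to -1.12. This placed Lip3 as the 129th lowest of 13185 genes with a p-value, and 1.95% of genes had a larger fold change in either direction.

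The exons of Lip3 overlap those of a neighbouring gene. In BDGP6, Lip3 shares 107 exon bases with CheA87a, a gene on the opposite strand. These bases are 7.46% of the exon length of Lip3 and 16.6% of that of CheA87a. CheA87a had a mean of 1619 normalized counts, 6.69 times that of Lip3, and a log2 fold change of -0.91 ± 0.21 with no p-value in the authors' deposited table. Its SE was 2.35 times the median of genes of like mean. Spread evenly over its exons, the mean of CheA87a would place 269 normalized counts on the shared bases, against 242 for Lip3 as a whole. The kit named in the labels does not mark strand, so reads from the shared bases cannot be assigned to one gene. No source used here says how the authors' counting treated them, and their part in the Lip3 difference was not tested. The 95% interval of CheA87a ran from -1.31 to -0.50, and that of Lip3 from -2.05 to -1.12. These intervals overlap only in part, the fold change of Lip3 was the larger, and the difference between the fold changes was not tested.

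Lip4 (FBgn0032264, arm 2L) went the other way from Lip3, with 5591 normalized counts in Dahomey and 4692 in Oregon R. Its log2 fold change was 0.25 ± 0.10 in the authors' deposited table, with an adjusted p of 0.0499, at the edge of the threshold. The adjusted p ranged from 0.0399 to 0.0507 over the ways of adjusting that were tried. The digestive lipase gene mag (FBgn0036996, arm 3L) had 3304 normalized counts in Dahomey and 4277 in Oregon R. Its log2 fold change of -0.37 ± 0.31 came with no p-value in the authors' deposited table. The SE of mag was 4.09 times the median of the 200 genes nearest in mean, and its interval, from -0.98 to 0.24, spans both directions.

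**Figure D3:**
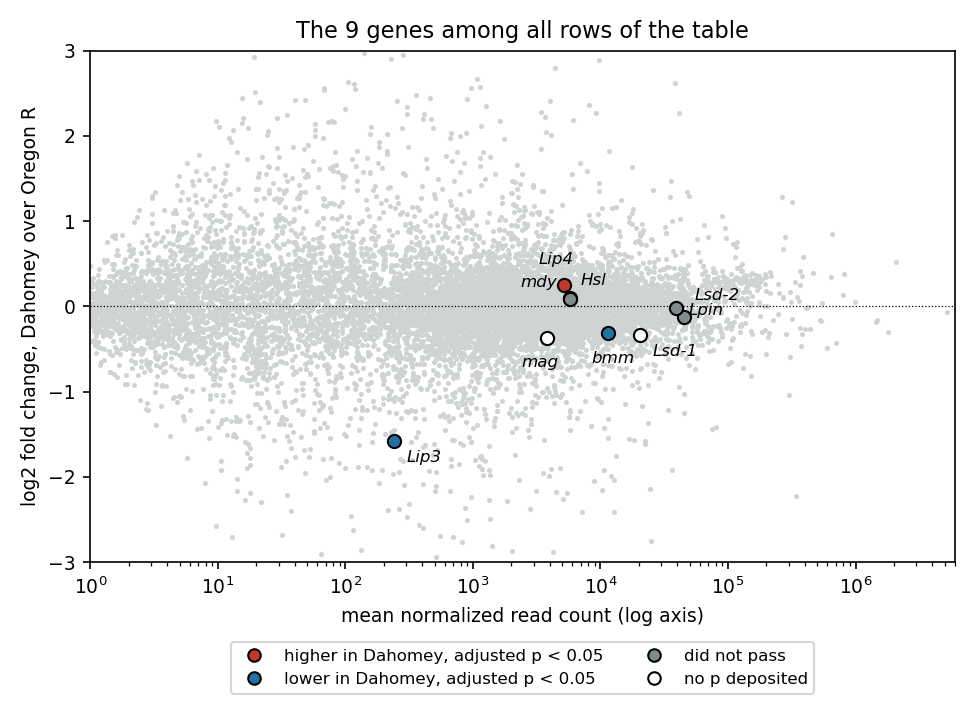
Log2 fold change of Dahomey over Oregon R against the mean normalized read count on a log axis, for 13411 rows of the table (grey; 900 rows with a mean under 1 or a log2 fold change beyond 3 either way lie outside) and the 9 genes (coloured by call). Lip3 stands apart at a low mean and -1.58, while the other 8 genes lie between -0.37 and 0.25 within the bulk of rows.

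Large SE marked both members without a p-value, and large SE were also seen in markers of ovary and midgut. Over the whole table, 6.40% of rows with a fold change had no p-value. Among rows with a mean of at least 1000, the median SE was 0.225 without a p-value and 0.0803 with one. Ovary lies in the abdomen, yet the authors' deposited table had means of 11153 for osk and 2952 for Cp36. Of 5 matched ovary markers 4 had no p-value, and the median of their relative SE was 4.15. Summed, the ovary markers came to 15609 normalized counts in Dahomey and 18862 in Oregon R. Of 15 markers of midgut, where mag acts, 5 had no p-value, 2 were higher in Dahomey and 5 lower. Amy-d and alphaTry had the highest means. The sum was 1341060 in Dahomey against 2195312 in Oregon R, and it follows a few abundant genes. In the authors' deposited table, Amy-d had -2.22 ± 0.11, Amy-p -1.04 ± 0.10, LysC -8.06 ± 0.13 and LysD -7.74 ± 0.13. By contrast, betaTry was higher (0.81 ± 0.066) and alphaTry did not pass (0.05 ± 0.072). The sum is therefore no measure of gut amount. No marker of either tissue was at 0. The part of ovary or gut RNA in the values of mag and Lsd-1 was not tested.

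**Figure D4:**
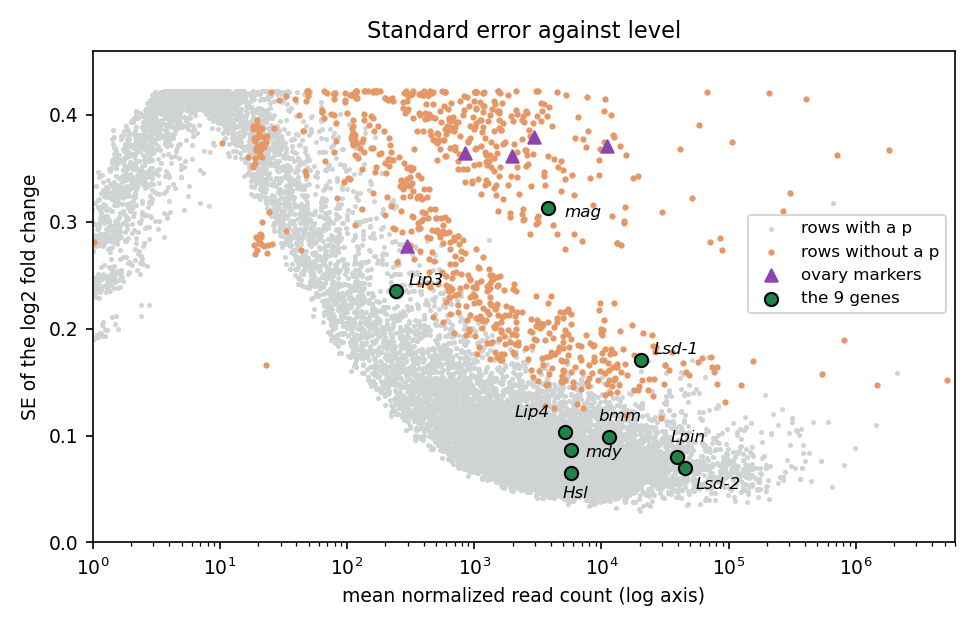
SE of the log2 fold change against the mean normalized read count on a log axis, for rows with a p-value (grey), rows without one (orange), ovary markers (triangles) and the 9 genes (green); 833 rows with a mean under 1 are not shown. Lsd-1 and mag lie among the rows without a p-value, mag at 0.31 near the ovary markers, and the other 7 genes lie among rows with one.

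Fat-body markers had fold changes of both signs. Of 7 markers, 3 were higher in Dahomey, 2 did not pass and 2 had no p-value. The lipoprotein gene apolpp had a log2 fold change of 0.39 ± 0.11, and that of the fatty acid synthase gene FASN1 was 0.41 ± 0.10, by the authors' deposited table. Summed, the fat-body markers came to 797665 normalized counts in Dahomey and 621519 in Oregon R. Most of both sums came from apolpp (526905 in Dahomey and 402738 in Oregon R) and FASN1 (244144 and 184262). Lsp2 and fit, the markers without a p-value, had -1.91 ± 0.39 and -0.46 ± 0.34 in the authors' deposited table, with SE 5.08 and 4.48 times those of genes of like mean. The interval of Lsp2, from -2.67 to -1.14, lay below 0. The part of fat-body amount in the members' values was not tested.

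Genes of triacylglycerol synthesis differed in both directions, and most did not pass. The list of 13 genes, with Lpin and mdy among them, held 1 higher and 4 lower in Dahomey, 7 that did not pass and 1 without a p-value. Of the 12 with a p-value 41.7% passed, beside 29.4% of all rows, and the median over those with a p was -0.04. The 12 genes are too few to read this share apart from the background. All rows include those of low mean, and no share over rows of like mean was computed for any list. Gpdh1, which makes glycerol 3-phosphate, had -0.23 ± 0.074 (adjusted p = 0.00981) in the authors' deposited table. Gpo1, the mitochondrial enzyme that oxidises it, had -0.38 ± 0.052, and Agpat1, which adds a fatty acid to lysophosphatidate, had -0.35 ± 0.087 in the authors' deposited table. The acyltransferase genes CG1941 and CG1946 are on arm 2R with Dgat2, an enzyme of the same last step as mdy. They had -0.83 ± 0.15 and 1.37 ± 0.27 in the authors' deposited table, and Dgat2 had 0.49 ± 0.26 (adjusted p = 0.159). As strain means, CG1941 had 767 normalized counts in Dahomey and 1367 in Oregon R, and CG1946 had 236 in Dahomey and 91.1 in Oregon R. Per kilobase of exon, CG1941, Dgat2 and CG1946 had deposited means of 634, 188 and 137 normalized counts, all below mdy. Agpat4 had 0.64 ± 0.16 and no p-value in the authors' deposited table.

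For lipid droplet assembly, 3 of 9 genes passed as higher in Dahomey, Jabba alone passed as lower and 5 did not pass, with a median of 0.02. The 4 calls are 44.4% of the list, beside 29.4% of all rows, and rest on few genes. The largest difference was that of sturkopf, a droplet-bound protein of the hydrolase fold, with 5081 normalized counts in Dahomey and 3093 in Oregon R. Its log2 fold change was 0.72 ± 0.048 in the authors' deposited table. Acsl, which activates long-chain fatty acids, had 0.36 ± 0.060, and Ldsdh1, a dehydrogenase found on droplets, 0.36 ± 0.067 in the authors' deposited table. Jabba, which anchors proteins such as histones to droplets, was lower, with 20961 normalized counts in Dahomey, 26298 in Oregon R and -0.33 ± 0.092 (adjusted p = 0.00195) in the authors' deposited table. Seipin, which shapes budding droplets, had 0.03 ± 0.064 there and did not pass.

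The 14 genes that control fat release passed about as often as all rows of the table. With 2 higher in Dahomey, 2 lower and 10 that did not pass, 28.6% of the list passed, beside 29.4% of all rows, and the median was 0.00. Akh, the fuel-releasing hormone made by cells of the corpora cardiaca, had 3725 normalized counts in Dahomey and 4611 in Oregon R. Its log2 fold change was -0.31 ± 0.081 (adjusted p = 0.000812) in the authors' deposited table. The gene of its receptor, AkhR, had -0.28 ± 0.13 and did not pass (adjusted p = 0.102) in the authors' deposited table. The endoplasmic calcium pump gene SERCA, which muscle expresses strongly, had -0.47 ± 0.069, and Itpr, the calcium release channel, had 0.33 ± 0.071 in the authors' deposited table. HDAC4, a regulator downstream of Akh and insulin signals, had 0.15 ± 0.058 (adjusted p = 0.0376) in the authors' deposited table. The kinase subunit gene Pka-C1 had 0.19 ± 0.077 and lay just outside the threshold (adjusted p = 0.0516) in the authors' deposited table, and foxo had -0.03 ± 0.12.

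**Figure D5:**
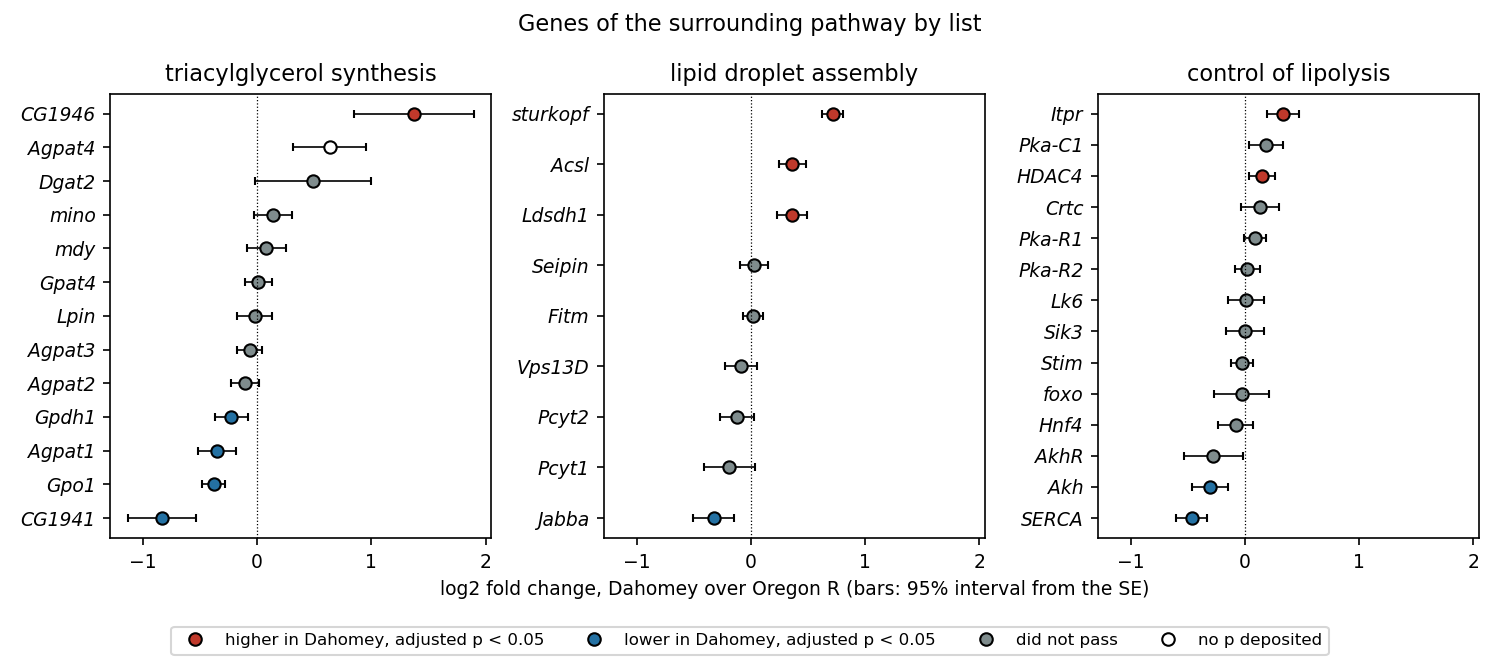
Log2 fold change of Dahomey over Oregon R for genes of triacylglycerol synthesis, lipid droplet assembly and control of lipolysis, with bars for the 95% interval from the SE and colour for the call. Calls fall on both sides of 0 in each list, and CG1946, CG1941 and sturkopf have the largest fold changes among the genes that passed.

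In the acid lipase family, to which Lip3, Lip4 and mag belong, 4 of 23 genes were lower in Dahomey and 1 was higher, while 14 did not pass and 4 had no p-value. Of the 19 with a p-value 26.3% passed, close to the 29.4% of all rows. The higher gene was Lip4, and the lower ones were Lip3, Lip1, Lip2 and CG3635. All 4 had low means, with the highest, that of Lip2, at 255 normalized counts. Lip1 had -1.52 ± 0.32 from a mean of only 34.7, Lip2 had -0.40 ± 0.15 and CG3635 -0.79 ± 0.23 in the authors' deposited table. Lip4 and mag had the highest means per kilobase of the family, and 11 of the 23 genes had a mean under 100. CG2772, CG8093 and CG18302 lacked a p-value like mag, and CG2772 had the largest fold change of the list, 3.85 ± 0.31 in the authors' deposited table. The median of the genes with a p was -0.05. In the patatin-domain group of bmm, which has 4 genes, bmm was lower, the phospholipase gene iPLA2-VIA was higher at 0.25 ± 0.043, and dob and sws did not pass at 0.14 ± 0.11 and 0.08 ± 0.052 in the authors' deposited table.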

How the data were processed

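Per the labels' protocols, poly(A)-selected libraries of both strains were prepared with a TruSeq RNA kit from RNA extracted at the same time. Build BDGP5 and the programs DESeq2, TopHat2 2.0.7, FastQC and bcl2fastq are named, per the submitters' processing notes; for annotation, counting program and handling of strand no source used here gives a statement. The authors deposited 1 table that holds, per row and per the file headers, the p-value with its adjusted value, the log2 fold change with its SE and a mean, which is a signal in normalized read counts. It has 0 columns of single libraries. A 2-sided Wald p recomputed from the fold change and SE matched the deposited p to within 4.1e-15. SE falls toward the lowest means, the shape of shrunken fold changes; whether a prior was used is not stated, and fold changes and strain means of genes with few reads may be too close.

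For each gene ID the row of the highest mean was used; no member shared its values with another ID. Adjusted p-values are those deposited, over 13395 rows; the 916 rows with a fold change and no p stayed without one. Intervals are normal 95% intervals from the SE. Relative SE is the SE over the median of the 200 genes nearest in mean. Symbols were matched for 14367 of 14701 IDs; arms, exon lengths and overlaps came from BDGP6, and no coordinates are given because the builds differ. One ovary marker, nos, was not matched. Members and lists were chosen with earlier results of these data known. All members, list genes that passed and the markers of highest mean were to be named; overlapping genes, list genes that did not pass and other markers were chosen after their values were seen, and the sequence comparisons planned were not made. The count model foreseen for values per library gave way to the deposited test. Adjustment was tested on simulated data. Alternatives were a minimum mean of 100, 1 row per gene, a p for every row, centring, a threshold of 0.01 and the row of lowest mean. Python 3.11.15, numpy 2.4.6, pandas 2.3.3, scipy 1.17.1 and matplotlib 3.10.9 were used.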

Additional observations from a re-analysis of the deposited data

How the results depend on the processing

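Over 6 alternatives, 21 results were recomputed, and 119 of 126 values were kept. For fold changes this meant the same direction and side of the threshold, and for counts a value within 1.5 times. No fold change reversed, but each member is on 1 row, so only centring could change a member's fold change. The row of lowest mean could change no member. Lsd-1 and mag have no deposited p, and only their fold changes were compared. Much of this tally was thus fixed in advance. Lip4, with a log2 fold change of 0.25 in both, no longer passed when every row with a fold change was given a p (adjusted p = 0.0507) or at a threshold of 0.01, so that the members called higher in Dahomey came to 0. With a p for every row, Lsd-1 and mag still did not pass (adjusted p = 0.141 and 0.439), and the synthesis genes higher in Dahomey came to 2, since Agpat4 was added; among acid lipases, CG2772 passed as higher in place of Lip4. At the threshold of 0.01, the lipolysis control genes higher in Dahomey came to 1 and the acid lipase genes to 0. With a minimum mean of 100, Pka-C1 passed as higher, and the lipolysis control genes higher in Dahomey came to 3. Acid lipase genes lower in Dahomey came to 3 under each of these settings. Such shifts lay within 1.5 times and were counted as kept. The calls of bmm and Lip3 held in all 6. Centring moved fold changes by under 0.01. Leaving out a library was not run, and no test of single libraries can be made from a table of means. No paired analysis was possible because the table has no values per library. Low read counts limit the precision of Lip3 and of the 11 acid lipase genes with a mean under 100, and depth per library is unknown.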

Other observations

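The genes next to each member on the chromosome, in the order of BDGP6, were looked at after the members' values were seen. The neighbours of bmm, mop and Tdrd3, did not pass, with 0.07 ± 0.062 and -0.03 ± 0.077 on the log2 scale by the authors' deposited table. The same holds for the neighbours of Lsd-2, dob (0.14 ± 0.11) and CG33177 (0.30 ± 0.26), and for those of Lip4, Lrr47 (-0.07 ± 0.11) and CG18301 (-0.01 ± 0.34), in the authors' deposited table. Beside Hsl, Ate1 did not pass (-0.05 ± 0.057) and PCNA had 0.12 ± 0.36 and no p-value; beside Lsd-1, udt (-0.05 ± 0.051) did not pass, nor did CG10214, by the authors' deposited table. Of the neighbours of mdy, CG13272 was higher in Dahomey, with 1.03 ± 0.35 (DESeq2 adjusted p = 0.0139) from a mean of 29.0, and Cse1 (0.07 ± 0.14) did not pass, per the authors' deposited table. Lpin, whose fold change was near 0, lies beside Obp44a, an odorant-binding protein gene with -1.92 ± 0.11 (DESeq2 adjusted p = 1.06e-61) in the authors' deposited table, and kermit on its other side was higher in Dahomey. Both neighbours of mag lacked a p-value as mag did: atk had 2.67 ± 0.23 and Tdh -0.30 ± 0.23 in the authors' deposited table. On the other side of Lip3 from CheA87a, CG34309 had -0.22 ± 0.091 (adjusted p = 0.0495) in the authors' deposited table.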
